A study of Mus musculus with 4 samples.

Results

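Complement and coagulation factors are the plasma proteins that tag and lyse microbes and that build, limit and dissolve clots, and most of them are secreted by the liver. Their mRNAs were taken from liver arrays of mice by gene symbol: a fixed list of 45 genes, 20 of complement and 25 of coagulation and fibrinolysis, was matched to the gene name of every probe that is no control spot. C1ra was matched through its older symbol C1r. The list took in 65 of the 41174 probes on the array, 29 of complement and 36 of coagulation, and each of the 45 genes had at least 1 probe. All livers came from female BALBc mice killed on day 20 after inoculation in a study of a Lactobacillus from ostrich and its effects on body weight, gut bacteria and metabolism. The tested livers were those of 2 mice of the group named LB1, against those of 2 control mice, with 1 array per mouse. What the name LB1 abbreviates and what the control mice received are not stated in the labels.

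Complement is started by antibody-bound C1 (classical pathway), by sugar-binding lectins (lectin pathway) or by spontaneous turnover of C3 (alternative pathway). All routes cleave C3 and can end in a pore built of the terminal components. Coagulation runs from the contact and intrinsic factors, or from factor VII and tissue factor, to factor X, thrombin and fibrin. Antithrombin, the protein C system and plasmin hold it in check. Hepatocytes make most of these proteins, whereas factor VIII, von Willebrand factor and thrombomodulin come mainly from endothelial cells, and the genes of several of them respond to inflammatory cytokines.

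A level is the log2 of a probe's processed intensity minus the 75th percentile of its own array, so 0 stands for a spot brighter than most on that array. A difference is the LB1 mean minus the control mean of such levels, and a gene is represented by its brightest tested probe. A call is an adjusted p under 0.05 from limma with Benjamini-Hochberg adjustment over all tested genes (over all tested probes where a second probe is described). The LB1 arrays were dimmer: the 75th percentile of the intensity was 146.9 and 80.8 on the LB1 arrays against 410.9 and 414.7 on the control arrays. Each slide held 1 LB1 and 1 control array, so a difference could be read within it. Saturated spots, which sit at the ceiling of the scanner, numbered 104 and 64 on the LB1 arrays and 266 and 297 on the control arrays. The correlation over tested probes was 0.973 between the LB1 arrays, 0.989 between the control arrays and 0.906 to 0.95 between groups. After scaling, the ceiling lay at different levels: saturated member probes read 8.60 to 8.97 on LB1 replicate 1 and 9.43 to 9.78 on LB1 replicate 2, against 7.09 to 7.60 on control replicate 1 and 7.03 to 7.64 on control replicate 2. Where both control arrays were saturated but no LB1 array was, the difference is therefore only an upper limit. Where LB1 replicate 1 was saturated too (Mbl2, F2 and Proc), the mean difference is no limit and only slide 2 gives an upper one, and a probe saturated on all 4 arrays has no direction. Saturated probes started at 8.46 on LB1 replicate 1 and at 9.29 on LB1 replicate 2. An upper limit is unsure where an unflagged LB1 reading lay above these (Cfb, F2 and Proc). In whole liver, fewer cells of a type and less RNA per cell cannot be told apart. Where groups are said not to overlap, this only describes the values on the 4 arrays and adds no support. How many of all tested probes separate the groups in this way was not counted.

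The probes behind the results below are 60-mers whose sequences are given in the files, with coordinates on mm9 counted from 1. Those printed here are of some of the members called lower or higher without saturation, or of members whose probes disagreed. All but those of Klkb1, C1s and C6 cover a longer stretch of the genome than their own length and so span an exon junction. F8 (chrX:72455821-72456709) is the only probe of its gene, and Klkb1 (chr8:46357683-46357742) and C6 (chr15:4748363-4748422) have 1 probe each too. C3 (chr17:57364538-57364695) and C1s (chr6:124481467-124481526) are here the dimmer of their probes, and Kng1 (chr16:23077602-23079064) is the brighter. Serping1 (chr2:84605968-84607474) and C8g (chr2:25354440-25354569) have a single probe.
F8: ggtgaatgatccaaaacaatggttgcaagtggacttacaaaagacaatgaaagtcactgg
Klkb1: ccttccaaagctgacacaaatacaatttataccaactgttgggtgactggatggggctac
C1s: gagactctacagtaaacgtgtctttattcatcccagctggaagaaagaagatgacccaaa
Serping1: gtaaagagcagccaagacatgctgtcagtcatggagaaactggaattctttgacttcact
C6: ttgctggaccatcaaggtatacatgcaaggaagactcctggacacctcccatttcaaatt
C8g: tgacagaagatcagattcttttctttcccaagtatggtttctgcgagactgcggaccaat
C3: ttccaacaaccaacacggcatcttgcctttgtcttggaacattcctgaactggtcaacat
Kng1: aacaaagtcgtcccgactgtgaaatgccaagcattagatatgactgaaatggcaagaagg

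All 45 genes and 61 of the 65 probes were tested. In LB1 livers 12 members were called higher, 6 lower and 27 neither, against 21.2% of all 15784 tested genes called higher and 9.67% called lower. Among complement genes 5 of 20 were called higher and 3 lower, and among coagulation genes 7 of 25 higher and 3 lower. Of the 12 members called higher, 10 were saturated on both control arrays: C3, Cfb, Mbl2 and Vtn of complement, and F2, F10, Fgb, Fgg, Proc and Serpinc1 of coagulation. The higher calls without a saturation flag were C8g and Proz. All 6 lower calls, C1s, Serping1, C6, F8, Klkb1 and F13b, were of unsaturated probes. Saturated probes started at 6.98 on control replicate 1 and at 6.90 on control replicate 2. Proz read above these, at 7.05 and 7.26, and C8g below them, at 6.96 and 6.72. What the nearby ceiling did to the differences of C8g and Proz was not tested. The median difference was 0.17 over all members, 0.19 over complement and -0.06 over coagulation genes, against 0.29 over all tested genes. Over the 27 members with no saturated array it was -0.33, with -0.08 for the 13 of complement and -0.63 for the 14 of coagulation, against 0.28 for all unsaturated genes. The difference between complement and coagulation was not tested.

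**Figure D1:**
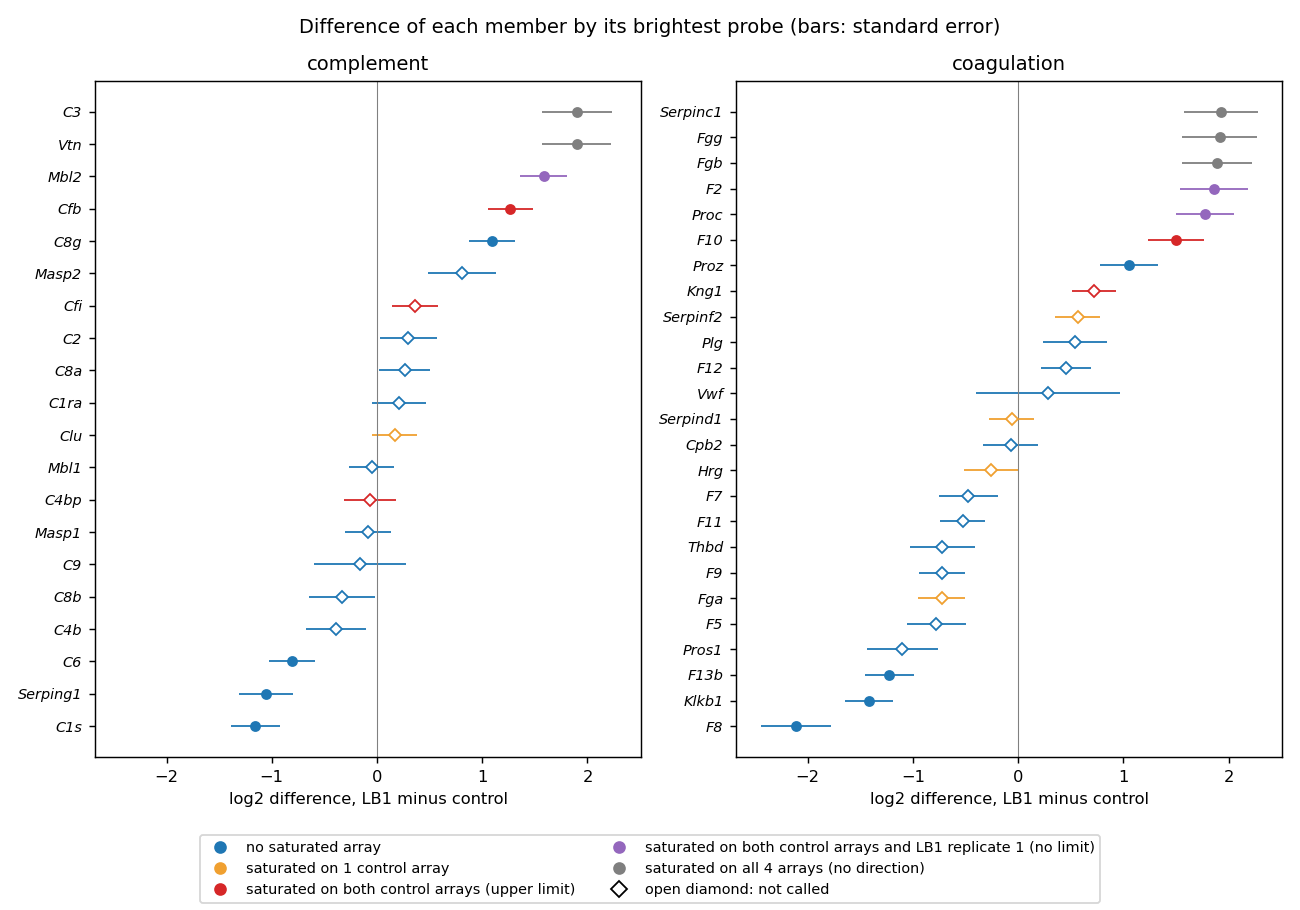
Log2 difference, LB1 minus control, of each of the 20 complement (left) and 25 coagulation genes (right) by its brightest probe, with standard errors as bars and colour for saturation. Filled points are called members: those above 1.2 are saturated on both control or all 4 arrays, and the 6 called lower carry no saturated array.

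The classical pathway starts with the proteases C1r and C1s, which cleave C4 and C2. C1s fell in LB1 livers and the other 3 members of this pathway were not called. The brighter C1s probe read 4.15 and 4.06 on the LB1 arrays against 5.10 and 5.42 on the control arrays. Its difference was -1.16 (SE 0.23, adjusted p = 0.0293), and the pair of arrays on slide 1 gave -0.95 and that on slide 2 gave -1.36. The dimmer C1s probe, printed above, read 1.84 and 1.45 on the LB1 arrays against 3.05 and 3.21 on the control arrays (difference -1.49, SE 0.25, adjusted p = 0.023). Both probes separated the groups without overlap. C1ra differed by 0.21 (SE 0.26), C4b by -0.39 (SE 0.29) and C2 by 0.30 (SE 0.27) and, at its second probe, by -0.24, none of them called. Mice carry near-identical copies of C1ra, C1s and C4b, and what these probes take up of the copies was not tested.

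The lectin pathway uses mannose-binding lectins, made from Mbl1 and Mbl2, and their proteases Masp1 and Masp2. Mbl1 read 4.73 and 4.75 on the LB1 arrays and 4.69 and 4.89 on the control arrays, a difference of -0.05 (SE 0.22) with overlapping groups. Mbl2 passed the test, but its probe reached the ceiling on both control arrays and on LB1 replicate 1. It read 8.95 and 9.21 on the LB1 arrays against 7.51 and 7.49 on the control arrays (difference 1.59, SE 0.22, adjusted p = 0.026). With both groups cut off, that difference is no limit, and slide 2 alone gives an upper limit of 1.73. With quantile normalization it was -0.01. The tested probes of Masp1 differed by -0.08, 0.37 and 0.46 and those of Masp2 by 0.81, 0.28 and -0.69, and none was called.

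C3, on which all pathways converge, and factor B (Cfb), the protease of the alternative C3 convertase, were both among the saturated members. The bright C3 probe was saturated on all 4 arrays and gives no direction. The dimmer C3 probe, which spans an exon junction, read 1.56 and 2.26 on the LB1 arrays against 0.93 and 1.10 on the control arrays. Its groups did not overlap, but the difference of 0.89 (SE 0.31, adjusted p = 0.0783) did not pass the test. Cfb read 8.94 and 8.76 on the LB1 arrays, where it was not flagged as saturated, against 7.60 and 7.57 at the ceiling of the control arrays. Its difference of 1.27 (SE 0.21, adjusted p = 0.0265) is an upper limit only if LB1 replicate 1 was below its ceiling. Cfb read above 8.46 there, where saturated probes of that array started, so the limit is unsure. With quantile normalization the difference was -0.26.

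Terminal components assemble the membrane pore: C6 joins after C5b, C8 is a complex of the products of C8a, C8b and C8g, and C9 closes the ring. C6 and C8g were called in opposite directions. C6 read -1.08 and -1.31 on the LB1 arrays against -0.37 and -0.40 on the control arrays (difference -0.81, SE 0.22, adjusted p = 0.0474). C8g, the lipocalin chain of C8, read 7.92 and 7.96 on the LB1 arrays against 6.96 and 6.72 on the control arrays (difference 1.10, SE 0.22, adjusted p = 0.0294). Neither gene had overlapping groups. The genes of the other chains of C8 were not called, with C8a at 0.26 (SE 0.24) and C8b at -0.33 (SE 0.31). C9 differed by -0.16 (SE 0.44), with 1.02 and 2.14 on the LB1 arrays and 1.50 and 1.98 on the control arrays. The C6 call was lost with the replicate number as a block (adjusted p = 0.0662).

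Among complement inhibitors, Serping1 (C1 inhibitor, which also blocks plasma kallikrein and factor XIIa) fell. It read 5.20 and 5.31 on the LB1 arrays against 6.08 and 6.55 on the control arrays, with no overlap. Its difference was -1.06 (SE 0.26, adjusted p = 0.0383). Slide 1 gave -0.88 and slide 2 gave -1.23. Vtn (vitronectin, which binds the terminal complex) was saturated on all 4 arrays and gives no direction. C4bp, the cofactor that removes C4b, differed by -0.06 (SE 0.24) and Cfi, the protease that degrades C3b and C4b, by 0.36 (SE 0.22), both saturated on both control arrays and not called. Clu (clusterin) was saturated on control replicate 2 alone and differed by 0.17 (SE 0.21).

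In coagulation, the probes of 2 fibrinogen chains were beyond the range of the scanner on every array, and a subunit of the clot crosslinker fell. Fgb and Fgg, which encode the beta and gamma chains, were saturated on all 4 arrays. Fga, of the alpha chain, was saturated on control replicate 2 alone and read 7.03 and 6.79 on the LB1 arrays against 7.63 and 7.64 on the control arrays. Its groups did not overlap, but the difference of -0.73 (SE 0.22, adjusted p = 0.0606) was not called. F13b, the carrier subunit of the fibrin-crosslinking factor XIII, fell. It read 3.71 and 3.42 on the LB1 arrays against 4.72 and 4.86 on the control arrays, without overlap (difference -1.22, SE 0.23, adjusted p = 0.0273). Slide 1 gave -1.01 and slide 2 gave -1.44.

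The common pathway turns prothrombin (F2) into thrombin by factor X (F10) with its cofactor factor V (F5). F2 read 8.87 and 9.65 on the LB1 arrays against 7.38 and 7.42 at the ceiling of the control arrays (difference 1.86, SE 0.32, adjusted p = 0.0268). LB1 replicate 1 was at its ceiling too, so only slide 2 could bound the difference from above, at 2.23. That limit is unsure, because F2 read above 9.29 on LB1 replicate 2, where saturated probes of that array started. F10 read 8.35 and 8.90 on the LB1 arrays against 7.16 and 7.09 at the ceiling of the control arrays, an upper limit of 1.50 (SE 0.27, adjusted p = 0.027). Both F2 and F10 thus passed the test only against control values that were cut off. F5 was not saturated and read 3.88 and 3.36 on the LB1 arrays against 4.25 and 4.55 on the control arrays (difference -0.78, SE 0.28, adjusted p = 0.0887). F7, the factor that tissue factor activates, differed by -0.47 (SE 0.28).

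F8, the cofactor of factor IX that is missing in haemophilia A, had the lowest difference of the 45 members. It read -1.96 and -2.72 on the LB1 arrays against -0.38 and -0.08 on the control arrays. The means were -2.34 ± 0.54 in LB1 livers and -0.23 ± 0.21 in control livers (SD, n = 2 each), a difference of -2.11 (SE 0.33, adjusted p = 0.026), and both LB1 arrays lay below both control arrays. The fall was -1.58 on slide 1 and -2.65 on slide 2. The F8 probe was dim, with processed intensities of 37.8 and 12.3 on the LB1 arrays against 317 and 394 on the control arrays. With normexp background correction the F8 difference was -0.55 and with the series table -0.93, both called. Klkb1 lay lower in these settings, at -1.75 and -1.61, so the rank of F8 depended on the processing. F9, the protease that F8 assists, differed by -0.73 (SE 0.22, adjusted p = 0.0586) at its brighter probe and by 0.10 (SE 0.29) at the other, and F11 by -0.53 (SE 0.21, adjusted p = 0.113). Vwf, which carries factor VIII in plasma, read -1.06 and 0.03 on the LB1 arrays and -1.67 and 0.07 on the control arrays, a difference of 0.28 (SE 0.68) smaller than its spread.

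Markers of endothelium, the main source of factor VIII, had summed signals, in multiples of the 75th percentile, of 62.4 and 52.6 on the LB1 arrays and 61.7 and 68.9 on the control arrays. Of the 12 tested markers, 2 were called higher and 2 lower, and their part in the F8 result was not tested. Thbd (thrombomodulin, the endothelial receptor that turns thrombin towards protein C) did not stand well above background in either LB1 liver. It read -3.75 and -3.02 there against -2.63 and -2.70 on the control arrays and was not called (adjusted p = 0.129). Its difference was -1.12 on slide 1 and -0.32 on slide 2, but 0.95 with normexp and 0.59 with the series table, so no direction is given.

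The contact system starts the intrinsic pathway and releases bradykinin: F12 activates prekallikrein (Klkb1), and kallikrein cuts kininogen (Kng1). Klkb1 fell. It read 2.17 and 1.89 on the LB1 arrays against 3.37 and 3.52 on the control arrays, with means of 2.03 ± 0.19 in LB1 livers and 3.45 ± 0.10 in control livers (SD, n = 2 each). Its difference was -1.42 (SE 0.23, adjusted p = 0.026), the groups did not overlap, and slide 1 gave -1.21 and slide 2 gave -1.63. F12 differed by 0.46 (SE 0.24) and was not called. The brighter Kng1 probe reached the ceiling on both control arrays, and its 0.72 (SE 0.21, adjusted p = 0.0549) bounds the difference from above. The dimmer Kng1 probe was not saturated and differed by -0.83 (SE 0.38, adjusted p = 0.141). Mice have a second kininogen gene, Kng2, and cross-hybridization between them was not tested.

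**Figure D2:**
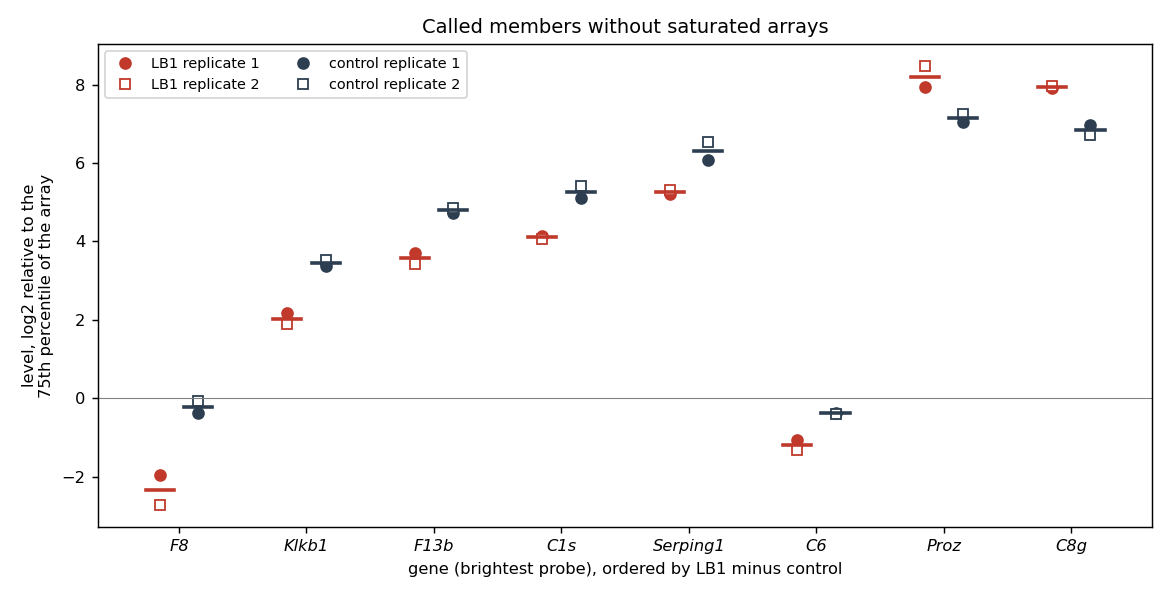
Level of each of the 8 called members without a saturated array (log2, with 0 at the 75th percentile of the array) on the LB1 arrays (left of each pair) and the control arrays (right), with the group mean as a line. In no gene do the groups overlap, but the genes were picked by their calls on these same arrays, so this adds no support. F8 shows the largest difference, -2.11.

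Among anticoagulants, probes of 1 gene went in different directions. Serpinc1 (antithrombin, the main inhibitor of thrombin and factor Xa) had a bright probe that was saturated on all 4 arrays and gives no direction. Its dimmer probe, which spans an exon junction, read 5.15 and 4.63 on the LB1 arrays against 6.43 and 6.60 on the control arrays. That probe fell by 1.63 on the log2 scale (SE 0.27, adjusted p = 0.023), without overlap. Proz (protein Z, the cofactor of an inhibitor of factor Xa) had a bright probe at 7.94 and 8.48 on the LB1 arrays against 7.05 and 7.26 on the control arrays (difference 1.05, SE 0.28, adjusted p = 0.0446). Its dimmest probe read 0.59 and 0.56 on the LB1 arrays against 1.59 and 1.99 on the control arrays (difference -1.22, SE 0.24, adjusted p = 0.0269). The middle probe differed by -0.07. Probes of Proz were thus called in both directions, and the mean over its probes was -0.08. The probe called higher is named after another transcript entry than the other Proz probes, and what it takes up was not tested.

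Protein C (Proc), the protease that thrombomodulin activates, read 8.76 and 9.32 on the LB1 arrays against 7.31 and 7.22 at the ceiling of the control arrays (difference 1.77, SE 0.27, adjusted p = 0.026). It was saturated on LB1 replicate 1 as well, and slide 2 gives an upper limit of 2.10. This limit is unsure, because Proc read just above 9.29 on LB1 replicate 2, where saturated probes of that array started. Its cofactor protein S (Pros1) had 2 probes below 0. The brighter read 2.56 and 2.03 on the LB1 arrays against 3.07 and 3.72 on the control arrays (difference -1.10, SE 0.33, adjusted p = 0.0607), and the dimmer read -1.02 and -1.09 on the LB1 arrays against 0.29 and 0.81 on the control arrays (difference -1.60, SE 0.26, adjusted p = 0.0229). Neither Pros1 probe had overlapping groups, and the dimmer one was called. Serpind1 (heparin cofactor II) was saturated on control replicate 2 alone and differed by -0.06 (SE 0.21). With quantile normalization its difference was -1.26 and called lower.

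None of the 4 members of fibrinolysis was called. Plg, the precursor of plasmin, differed by 0.54 (SE 0.30) and 0.67 (SE 0.29) at its probes. Its inhibitor Serpinf2 (antiplasmin) differed by 0.57 (SE 0.22) and Hrg, a plasma protein that binds plasminogen and heparin, by -0.26 (SE 0.26). Both were saturated on control replicate 2 alone. With quantile normalization they differed by -0.42 and -0.81, and Hrg was called lower with normexp, cyclic loess and the series table. Cpb2, which protects fibrin from lysis, differed by -0.07 (SE 0.26) and -0.14 (SE 0.22).

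**Figure D3:**
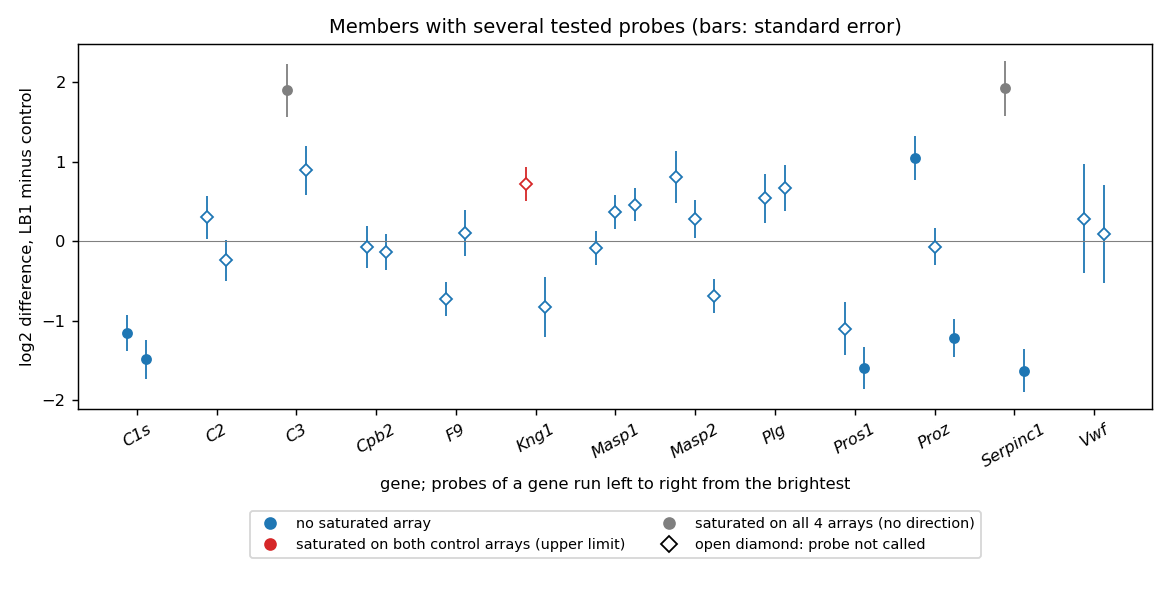
Log2 difference, LB1 minus control, of every tested probe of the 13 members with several tested probes, from the brightest probe (left) to the dimmest, with standard errors as bars. For 7 of these members, C2, F9, Kng1, Masp1, Masp2, Proz and Serpinc1, the probes lie on both sides of 0. The Serpinc1 value above 0 is of a probe saturated on all 4 arrays and has no direction. That of Kng1 is only an upper limit.

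Over probes rather than genes, 43 of the 61 tested member probes had no saturated array, and of these 2 were called higher and 10 lower, against 19.2% and 13.2% of all 22974 tested probes. The 10 lower probes were the 6 that represent C1s, Serping1, C6, F8, Klkb1 and F13b and the dimmer ones of C1s, Pros1, Proz and Serpinc1. With saturated probes left out of the gene fit, 14 complement genes remained with 1 called higher and 3 lower, and 16 coagulation genes with 1 called higher and 4 lower, against 20.3% and 9.74% of 15599 genes. The added lower call was Serpinc1, through its dimmer probe. With this setting, the complement median was -0.07 and the coagulation median -0.72, against 0.28 for all genes.

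The 6 lower calls kept their direction and their call with normexp, quantile normalization, cyclic loess, array median scaling and the deposited series table. The higher calls of C8g and Proz depended on the processing. The C8g difference was 0.44 with quantile normalization, 0.38 with cyclic loess and 0.46 with array median scaling, and that of Proz 0.07, 0.29 and 0.42, none of them called. Proz also lost its call with normexp (0.48, adjusted p = 0.0749), with the mean over its probes (-0.078) and under the methods' t-test. With quantile normalization 0 members were called higher by limma and 10 lower, against 9.89% and 11.2% of all genes (2 higher and 18 lower at an unadjusted p under 0.05). Cyclic loess called 0 members higher and 10 lower, against 11.9% and 11.8% of all genes (9 and 19 unadjusted). The percentages are of adjusted calls, so the unadjusted counts have no share of all genes beside them. Normexp called 12 higher and 21 lower, against 45.7% and 20.4%, and array median scaling 7 higher and 13 lower, against 7.48% and 24.7%. The series table called 13 higher and 15 lower, against 45.8% and 15.6%, and the fit with the replicate number as a block 12 higher and 5 lower, against 20.5% and 8.6%. The median of all genes was 0.05 with quantile normalization, 0.11 with cyclic loess and -0.34 with array median scaling, against 0.29 with the 75th percentile. With 2 mice a group, leaving out 1 array left a lone array in its group. The differences of the 6 genes called lower then ran from -2.49 to -0.93 without LB1 replicate 1 and from -1.73 to -0.69 without LB1 replicate 2. They ran from -2.26 to -0.80 without control replicate 1 and from -1.96 to -0.82 without control replicate 2. Calls under such fits, those of the lower genes, C8g and Proz included, depended on which array was left out, among members as among all genes.

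**Figure D4:**
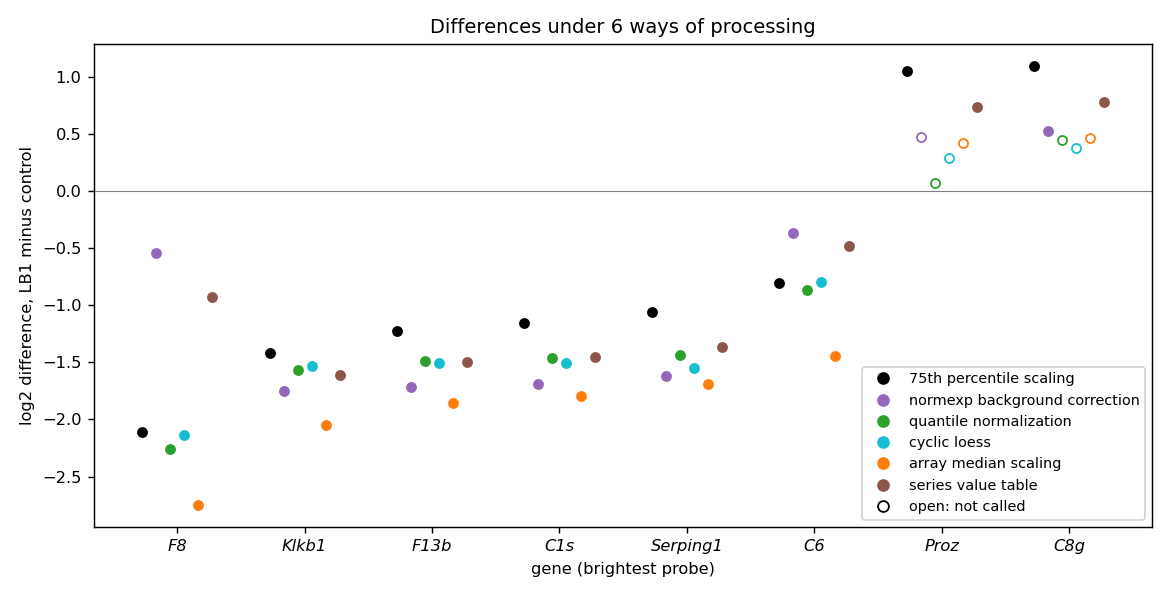
Log2 difference, LB1 minus control, of the 8 called members without a saturated array under 6 ways of processing, filled where called. The 6 genes below 0 are filled under each, and C8g and Proz are open under quantile normalization, cyclic loess and array median scaling, and Proz also under normexp.

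Letters bound by the liver transcription factors HNF4 and C/EBP, which are known to act on several of these genes, were searched for in the 250 bases before the start of each gene in RefSeq promoters of GRCm38.p6, on both strands. The letters searched were CAAAGTCCA for HNF4 and TTGCNNAA for C/EBP, and 33 of the 45 members matched a promoter entry. Neither string contains the other. The HNF4 letters stood before 0 of the 33 members and before 0.451% of 27025 genes. The C/EBP letters stood before 9 of the 33 members (27.3%: C1s, C3, C9, F11, F9, Fga, Fgb, Hrg and Klkb1) and before 10.8% of all. Of the 5 members called lower that had a promoter entry, 2 held the C/EBP letters. The promoter of Klkb1 (chr8:45294836-45295085, minus strand) is shown as that of a member that fell, with the C/EBP match in capitals.
Klkb1: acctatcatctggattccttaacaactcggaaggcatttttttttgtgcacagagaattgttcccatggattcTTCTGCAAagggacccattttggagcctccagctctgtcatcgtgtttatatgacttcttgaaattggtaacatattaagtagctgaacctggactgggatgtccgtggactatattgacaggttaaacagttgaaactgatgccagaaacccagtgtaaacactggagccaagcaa

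Of 16 tested factors and receptors known to act on hepatic complement or coagulation genes, 5 were higher and 1 lower, with a median of 0.37, against 21.2% higher, 9.67% lower and a median of 0.29 over all tested genes. Stat3, the acute phase transcription factor downstream of interleukin-6, rose to 6.05 and 6.95 on the LB1 arrays, against 3.76 and 4.25 on the control arrays (difference 2.49, SE 0.39). Cebpb, a C/EBP factor of the acute phase, rose by 1.49 (SE 0.21). Foxa2, a liver transcription factor, rose by 1.26 (SE 0.26). The 1 lower call was Il6ra, a receptor chain for interleukin-6, at -1.07 (SE 0.24). Activity of the interleukin-6 pathway was not tested. After quantile normalization 4 of the 16 were called higher and 1 lower, against 9.89% and 11.2% of all genes.

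Other genes of both cascades were counted beside the members. Of 29 further complement genes 23 were tested, of which 3 were higher and 7 lower, with a median of -0.51. Over all tested genes 21.2% were higher and 9.67% lower, with that same median of 0.29. Cfhr2, of the factor H family of regulators, fell by 1.43 (SE 0.21) on the log2 scale. Cr1l (Crry), the membrane regulator of C3 in rodents, fell by 1.85 (SE 0.21), and Vsig4, the complement receptor of Kupffer cells, fell by 1.59 (SE 0.23). Of 32 further genes of coagulation and fibrinolysis 22 were tested, of which 7 were higher and 6 lower, with a median of -0.16. Tfpi2, a Kunitz-type protease inhibitor, fell by 2.63 (SE 0.27). Vkorc1l1, a vitamin K epoxide reductase, fell by 1.55 (SE 0.24) and Kng2 by 1.19 (SE 0.21). With quantile normalization the complement counts were 0 higher and 9 lower, and the coagulation counts 1 higher and 6 lower. Of all genes 9.89% were then higher and 11.2% lower.

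Markers of other cell types were counted too, against 21.2% of all tested genes called higher and 9.67% called lower. Mesothelium, the cell layer around the liver, had summed marker signals of 15.1 and 51.3 times the 75th percentile on the LB1 arrays against 1.65 and 0.27 on the control arrays, with 8 of 9 tested markers higher. The mesothelial list held 11 markers. Of the 9 tested, 1 on control replicate 1 and 6 on control replicate 2 were not well above background, and 0 on either LB1 array. So 6 of the 9 entered the test through the LB1 arrays alone. This filter favours higher calls, and the count of them adds no support, also with quantile normalization. Erythroid markers summed to 545 and 629 on the LB1 arrays against 158 and 90.7 on the control arrays, with 3 of 3 tested markers higher. The erythroid list held 6 genes, and 1 of the 3 was saturated on at least 1 array, so the size of the difference in sums is unsure. Of 5 tested platelet markers 3 were higher, and of 8 lymphocyte markers 4. Of 10 markers of stellate cells and fibroblasts 3 were higher and 0 lower, and of 4 of cholangiocytes 2 were higher and 1 lower. The 2 higher cholangiocyte markers are also counted among the mesothelial ones. With quantile normalization 7 mesothelial, 2 erythroid, 2 platelet, 1 lymphocyte, 1 stellate and 1 cholangiocyte marker were called higher, against 9.89% of all genes. Called lower were 3 endothelial, 2 Kupffer cell, 2 hepatocyte, 1 lymphocyte and 1 cholangiocyte marker, against 11.2%. Kupffer cell markers summed to 80.3 and 83.4 on the LB1 arrays and 77.7 and 84.1 on the control arrays, with 0 of 11 called higher by limma and 2 lower. Hepatocyte markers summed to 4006 and 6302 on the LB1 arrays and 1777 and 1762 on the control arrays, and all 13 tested ones were well above background on every array. Of these markers 8 were called higher, all of them saturated, and 1 lower, so the share of hepatocyte RNA could not be read from them. The part of these markers in the results for complement and coagulation genes was not tested.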

How the data were processed

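Liver RNA of 2 LB1 and 2 control mice was measured on 1-colour Agilent arrays (Cy3), 1 mouse per array. Per the file headers, Feature Extraction 10.5.1.1 wrote the deposited processed signal, a linear spot intensity after background subtraction and detrending, with no step between arrays. The design text names another version of that software. The deposited series table holds the mean spot intensity in whole numbers (within 0.5 of the scanner files, column medians 62 and 45 for LB1 and 70 and 65 for control arrays), unscaled and uncentred.

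Control spots and outlier spots were dropped. Levels are log2 processed signals minus each array's 75th percentile over 43379 spots, averaged per probe. A probe entered the test if a group had it well above background on both its arrays (22974 probes, 15784 genes). The test was limma's lmFit and eBayes (limma 3.58.1, R 4.3.3), LB1 minus control, with Benjamini-Hochberg adjustment. For this fit, 65 probes were named as members, 24787 by accession in the RefSeq table of GRCm38.p6, 6037 by symbol and 1810 by an older symbol, and 8475 kept the file's name. The fit was tested on simulated data. Each slide, scanned on its own per the file headers, held the LB1 and control array of 1 replicate number. Deviations of same-numbered arrays from their group means correlated at 0.151, and with 2 pairs this does not settle a pairing.

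The members, gene lists and tests were chosen with earlier results of these data known. All members could be named, and of each other list at most 4 genes with the smallest p, with Il6ra added as the only lower call of its list. Some genes, 1 motif and 1 probe sequence are not reported here. Alternatives covered background correction, scaling, filters, saturation, the choice of probe, the block, the methods' t-test, the series table and each array left out. The number of arrays limits the precision.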

Additional observations from a re-analysis of the deposited data

Results flagged for a closer look

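Of the 4 member probes that were not tested because neither group had them well above background on both arrays, 2 were well above background on LB1 replicate 2 and on no control array. The untested probe of Vwf, the von Willebrand factor gene, had a processed intensity of 10.8 on that array. The second probe of C4bp had 13.4 on that array. Neither was well above background on LB1 replicate 1, so these readings rest on a single array and were not tested.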

How the results depend on the processing

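In the order complement genes called higher, lower, their median; coagulation genes called higher, lower, their median; and all genes called higher and lower, the main values were 5, 3, 0.19; 7, 3, -0.06; and 3352 and 1527. With normexp 9 complement and 12 coagulation genes were lower, the complement median was -0.38 and 7220 and 3225 genes were called. With quantile normalization 0 complement genes were higher (median -0.30), 0 coagulation genes higher and 7 lower (median -0.60), and 1561 genes higher. Cyclic loess, chosen after seeing the data, gave 0 (-0.29), 0 and 7 (-0.70), and 1877. Array median scaling gave 2 complement genes higher (-0.45), 10 coagulation genes lower (-0.70), and 1181 and 3898 genes. The series table gave 5 complement genes lower (-0.15), 10 coagulation genes lower (0.15), and 7233 and 2457 genes. Without a filter 12320 genes were higher. With probes well above background on all 4 arrays 6 coagulation genes were lower (0.11). Without saturated probes 1 complement (-0.067) and 1 coagulation gene (-0.72) were higher. The mean over probes gave a complement median of 0.15. The methods' t-test called 1760 genes higher and 926 lower, and after Benjamini-Hochberg 1 and 0, with 0 and 0 of complement and 0 and 0 of coagulation. Unadjusted and without a fold limit, the counts were 5 and 3 for complement and 7 and 6 for coagulation. No such count over all genes is given here. The cause of these shifts was not tested.

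Leaving out 1 array at a time gave 0 to 6 complement genes higher and 0 to 2 lower (median 0.065 to 0.22), 0 to 8 coagulation genes higher and 0 to 7 lower (median -0.29 to 0.15), and 0 to 4493 genes higher and 1 to 2626 lower. The lone array of a group was then assumed to vary like the other group. Among members called under either setting, the sign turned for Clu (-0.42) and Thbd (0.95) with normexp, Thbd with the series table (0.59), Cfb (-0.26) and Mbl2 (-0.013) with quantile normalization, Serpinc1 without saturated probes (-1.63) and Proz with the mean over probes (-0.078). Signs also turned in members called neither way: 7 with normexp, 7 with quantile normalization, 9 with array median scaling, 9 with cyclic loess, 4 with the series table, 2 with the mean over probes and 1 without saturated probes. With the replicate number as a block, 5 members were lower in place of 6, C6 being lost, and 12 higher, and no other member's call changed. Dim probes on the LB1 arrays and saturated probes on the control arrays limit what could be measured.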
